A study of Mus musculus with 8 samples.

Results

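Interferon-response genes are the genes that a cell switches on when it senses interferon, and 42 of them, called members below, were followed here in neonatal cardiomyocytes (NCMs) of newborn mice. They were chosen by name, as well-known targets and components of the interferon pathway, and all 42 were found by gene symbol among the 27179 Entrez genes of the count table. RNA was sequenced from 8 libraries, 4 from filtered air (FA) offspring and 4 from diesel exhaust (DE) offspring. All were C57Bl/6 J males, and no engineered allele is named for them. Their dams were mated in FA and then breathed FA or DE from embryonic day 0.5 until shortly before birth, and hearts were collected at birth, on postnatal day 0. The heart of 1 male newborn was used for each library, after the vessels and atria were trimmed away, fibroblasts were left to attach to a plate, and the dividing-cell poison Ara-C was added. The dam or litter of each newborn is not given in the sources used here, so the p-values measure the spread between these newborns only.

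Interferons are secreted proteins that warn cells of viral infection. Type I interferons bind the receptor made of Ifnar1 and Ifnar2, the kinases Jak1 and Tyk2 then phosphorylate Stat2, and Stat2 works with Irf9 in a complex that binds a DNA element called ISRE (interferon-stimulated response element) in the promoters of its targets. Interferon gamma acts through Ifngr1 and Ifngr2 and another element, GAS (gamma-activated site). The targets degrade or bind viral RNA, block the entry and release of virus, tag proteins with the ubiquitin-like Isg15, and raise the display of peptides on MHC class I. Many are also made at a low level in cells that have met no virus.

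Totals ran from 17943024 to 39839737 counts a library, so that 3 counts, taken here as the limit that a count of 0 allows, equal 0.0753 to 0.167 CPM, the usual scaling of counts to the total of a library. This limit covers counting error only. The share of a library's counts that fell on the members ran from 0.0471% to 0.0883%. Sample names begin with 11 or 12 after the group: DE replicates 3 and 5 have the prefix 12, and the other 6 libraries, all FA among them, have the prefix 11. The sources used here do not say what the prefix marks. Below, FA values follow the order of replicates 2, 3, 4 and 6, and DE values the order of replicates 1, 7, 3 and 5, so that the last 2 DE values are those of prefix 12. Markers of cardiomyocytes were high in every library, their sum running from 37108 to 39488 CPM in FA and 37167 to 43749 CPM in DE. Of these 7 markers, 6 had a log2 fold change of DE against FA below 0, and Pln was called lower. Myh7 alone lay above 0, with a mean of 10022 CPM in FA and 14494 CPM in DE, and was called higher. With the prefix as a term neither Myh7 (adjusted p = 0.0512, edgeR) nor Pln (0.170) was called.

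The ISRE and the GAS were looked for in the promoters of these genes. RefSeq promoters of GRCm38.p6, from 250 bases before to 50 bases after a start site, were given for 32 of the 42 members. The core of the ISRE, GAAA, any 2 bases and GAAA again, on either strand (TTTC, 2 bases and TTTC where it lies on the other strand, with overlapping matches counted), was present in 15 of these 32 genes (46.9%), against 3.99% of all 27025 genes with a promoter. The GAS letters, TTC, any 3 bases and GAA, were present in 9 of the 32 (28.1%), against 9.55% of all genes. A match describes the letters and does not show that a factor bound there. The stretches below are those of called members, and of Isg15 and Oas1a, which were among the 5 largest differences, on the strand of the gene and with the ISRE core in capitals. Only matches that end before the start site are shown.
Stat2, chr10:128270264-128270297, + strand: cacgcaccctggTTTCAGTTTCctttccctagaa
Ifit3, chr19:34583361-34583394, + strand: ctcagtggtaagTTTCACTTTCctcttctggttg
Ifit3, chr19:34583395-34583428, + strand: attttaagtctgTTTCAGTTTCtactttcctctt
Bst2, chr8:71537575-71537614, - strand: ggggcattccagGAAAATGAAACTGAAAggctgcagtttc
Gbp3, chr3:142559987-142560026, + strand: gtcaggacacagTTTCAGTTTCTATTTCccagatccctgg
Isg15, chr4:156200863-156200908, - strand: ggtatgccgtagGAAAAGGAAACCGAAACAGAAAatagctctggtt
Oas1a, chr5:120907526-120907557, - strand: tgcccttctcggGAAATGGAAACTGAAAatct
In Isg15, 3 matches overlapped, and they ended 56 bases before the start site. Bst2, Gbp3 and Oas1a held 2 overlapping matches each, the last of them 114, 29 and 4 bases from the start. The matches of Ifit3 lay 146 and 112 bases and that of Stat2 212 bases upstream. Distances are from the start site of that promoter in the table, which for some genes is not the outermost one. Of the 10 members called different between DE and FA, 8 had a promoter in the table, and 4 of these (Stat2, Ifit3, Bst2 and Gbp3) held the ISRE core. Irf1, long known as a target of interferon gamma, had 2 promoters in the table, of which 1 held the GAS letters and 0 held the ISRE core.

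Interferon-response genes were made in these cells at low to moderate levels. Their mean over the 8 libraries was under 1 CPM for 6 members, between 1 and 10 CPM for 17 and at least 10 CPM for 19. Per kilobase of the longest coding transcript, Ifitm3, which stops viruses in endosomes, stood first at 111 CPM per kilobase, above Bst2 at 29.1 and Irf1 at 25.1. Trim25 at 15.0 and Gbp3 at 10.2 CPM per kilobase followed, and Oas3 was the lowest tested member at 0.0957. A filter on low counts kept 40 members. The other 2 had too few counts for a test. Zbp1, a sensor of Z-form nucleic acids, had 51 counts over all libraries, and Mx1, which is defective in C57BL mice, had 33.

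The comparison of DE with FA asks whether exposure before birth left a mark on transcription in the newborn's cardiomyocytes. Here 10 members were called higher in DE (edgeR's quasi-likelihood test, Benjamini-Hochberg adjusted p of 0.05 or less and a difference of at least 25%), against 3.58% of all 14966 tested genes. They were Oasl1, Bst2, Mx2, Ifit3, Rtp4, Cmpk2, Gbp3, Stat2, Tap1 and Irf1. Calls in the other direction numbered 0, against 2.22% of all tested genes. DESeq2, which called 10.8% of all tested genes in either direction, also called 0 members lower. Before adjustment 23 members had a p under 0.05 in edgeR's test, all of them higher in DE, against 13.4% of all tested genes. The estimate lay above 0 for 37 of the 40, against 50.5% of all tested genes, and its median was 0.59 on the log2 scale, against 0.0037 over all tested genes. In 13 members every DE library lay above every FA library, against 7.43% of all tested genes. The count of 10 changed with single libraries, as did the share of all tested genes called higher. It became 0 without FA replicate 4 (18 at an unadjusted p under 0.05), where 0.796% of all tested genes were called higher. It was 1 when FA replicate 3 (1.39%) or DE replicate 3 (1.04%) was left out, 5 when FA replicate 2 was (0.927%), and 6 when DE replicate 5 was (2.38%). The median log2 fold change of the members in these fits lay between 0.44 and 0.70. The count of members called higher was also 0 with the 25% difference built into the test (19 at an unadjusted p under 0.05), against 0.294% of all tested genes, and 16 by DESeq2, against 6.19%. The name prefix as a term also gave 0 calls (13 at an unadjusted p under 0.05), against 1.78%, and a median of 0.27, and the libraries of prefix 11 alone gave 0 (11 at that threshold).

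**Figure D1:**
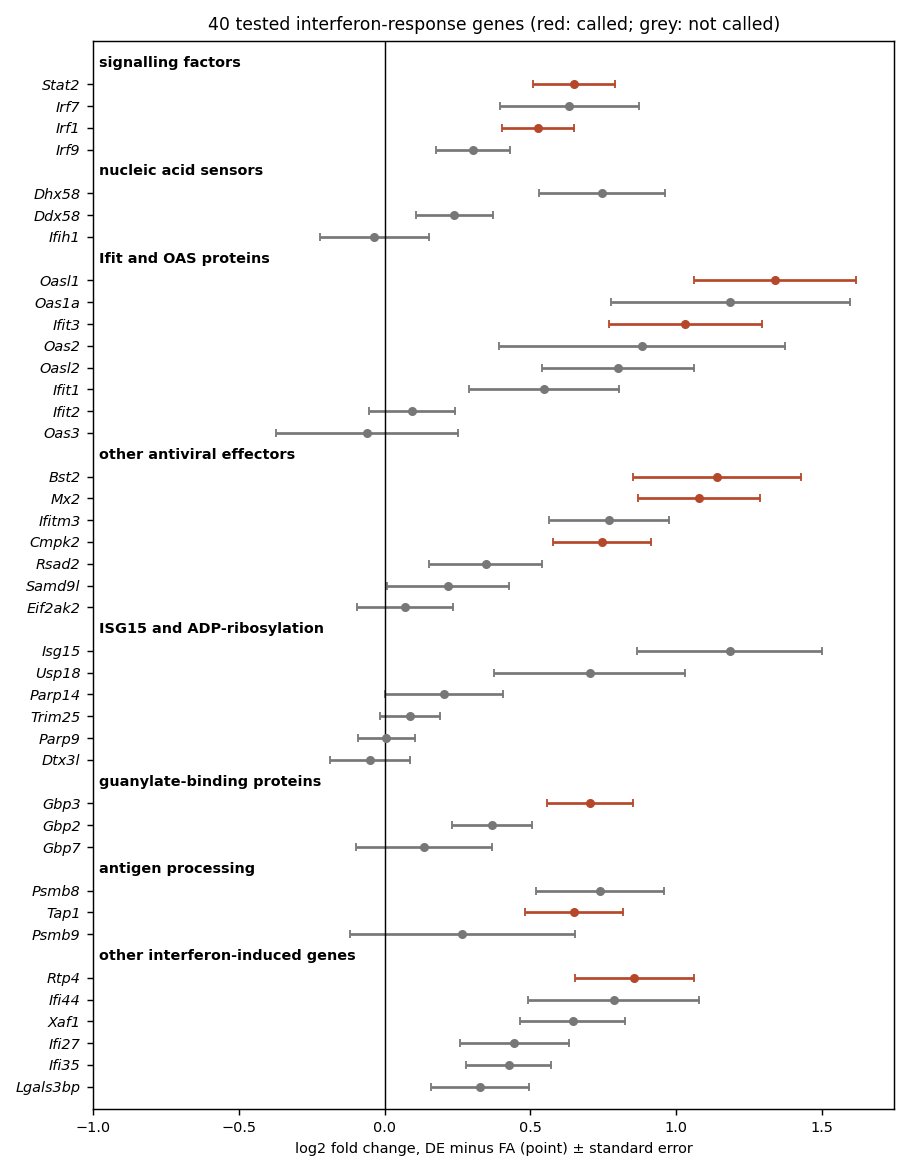
Estimated log2 fold change of DE against FA (points) with its standard error (bars) for the 40 tested members, ordered by role; red points were called. Of the 40 points, 37 lie to the right of 0, and the 10 red ones lie between 0.53 and 1.34.

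Among the factors that carry the signal, Stat2 and Irf1 rose. Stat2 (Entrez gene 20847, chromosome 10 from 128270498 to 128292853 on GRCm38), which works with Irf9 in the complex that binds the ISRE, was at 35.0, 23.3, 25 and 24.98 CPM in FA and 40.1, 38.6, 49.97 and 41.6 CPM in DE. All DE libraries lay above all FA libraries, and FA replicate 2 stood apart from the other FA libraries. The mean was 27.1 ± 5.34 CPM over the FA libraries against 42.6 ± 5.09 CPM over the DE libraries (SD, n = 4 each), a log2 difference of 0.65 ± 0.14 (SE) at an adjusted p of 0.026, a call lost without FA replicates 3, 4 or 6 or DE replicate 3 (adjusted p up to 0.0916) and with the prefix as a term, which gave 0.53 (adjusted p = 0.0967). Irf1 (Entrez gene 16362, chromosome 11 from 53770014 to 53778374), a transcription factor induced by interferon gamma, was at 43.7, 40.6, 42.9 and 48.4 CPM in FA and 66.4, 56.2, 76.6 and 53.7 CPM in DE. The groups did not overlap, and the highest DE value, of replicate 3, lay well above the lowest, of replicate 5. The log2 estimate for DE against FA was 0.53 ± 0.12 (SE) at an adjusted p of 0.0337, a call lost without FA replicates 2, 3 or 4 or DE replicate 3 (adjusted p up to 0.105) and with the prefix as a term, which gave 0.48 (adjusted p = 0.0994). Irf9 and Irf7 were not called. Irf9, the DNA-binding partner in the complex, had a log2 estimate of 0.30 (adjusted p = 0.161). Irf7, which drives the production of type I interferon, had 0.63 (adjusted p = 0.129), with values of 6.52, 5.13, 4.57 and 6.93 CPM in FA and 6.51, 6.13, 10.8 and 12.4 CPM in DE. Only the DE libraries of prefix 12 lay above the FA range.

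A total of 0 of the 3 tested sensors were called (1 at an unadjusted p under 0.05, in edgeR's test), and in that 1 gene, Dhx58, the groups did not overlap. Dhx58, also called LGP2, modulates the RNA sensors of the RIG-I family. Its values were 1.23, 1.05, 0.846 and 1.57 CPM in FA and 1.69, 1.97, 1.95 and 2.32 CPM in DE, with a log2 estimate of 0.75 ± 0.22 (SE) at an adjusted p of 0.0656. The estimates of Ddx58 (RIG-I) and Ifih1 (MDA5) were 0.24 and -0.035, with adjusted p of 0.277 and 0.926, and the groups overlapped for both. Ifih1 was highest in FA replicate 2, and its estimate was above 0 with library totals alone and with offsets for length and GC content.

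The Ifit proteins bind foreign RNA, and the OAS proteins make the small oligoadenylates that activate RNase L. In this group of 8, Oasl1 and Ifit3 rose. Oasl1 (Entrez gene 231655, chromosome 5 from 114923143 to 114937911), a member of the OAS family that restrains the translation of Irf7, was at 1.31, 0.747, 0.508 and 0.836 CPM in FA and 2.03, 1.65, 2.52 and 2.74 CPM in DE. No DE library fell to the highest FA library, which was replicate 2. Its log2 fold change of 1.34 ± 0.28 (SE) was the highest estimate of the 40, at an adjusted p of 0.0218, a call lost without FA replicates 3 or 4 or DE replicate 3 (adjusted p up to 0.0687) and with the prefix as a term, which gave 1.04 (adjusted p = 0.0909). Ifit3 (Entrez gene 15959, chromosome 19 from 34583119 to 34588982) was at 2.43, 1.69, 1.07 and 2.11 CPM in FA and 3.36, 3.04, 3.36 and 5.44 CPM in DE. Here 3 DE libraries lay close together and replicate 5 far above them. On the log2 scale the difference was 1.03 ± 0.26 (SE) at an adjusted p of 0.0443, a call lost without FA replicates 2, 3, 4 or 6 or DE replicates 7, 3 or 5 (adjusted p up to 0.115) and with the prefix as a term, which gave 0.77 (adjusted p = 0.188). A close copy, Ifit3b, lies beside Ifit3, and how the counting split shared fragments is not known, so its value is uncertain. Oas1a, which has similar neighbours too, was at 0.668, 0.399, 0.451 and 0.738 CPM in FA and 0.514, 0.959, 1.66 and 2.02 CPM in DE, and DE replicate 1 lay within the FA range, below 2 FA libraries. Its log2 fold change of 1.19 came with a standard error of 0.41 and was not called (adjusted p = 0.104). The estimates of Oasl2, Oas2 and Ifit1 were 0.80, 0.88 and 0.55, and those of Ifit2 and Oas3 0.093 and -0.062, with adjusted p between 0.0903 and 0.965.

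Of the other antiviral effectors, Bst2, Mx2 and Cmpk2 rose. Bst2 (Entrez gene 69550, chromosome 8 from 71534255 to 71537472), or tetherin, holds budding virus at the cell surface, and it was at 14.8, 14.2, 12.2 and 16.2 CPM in FA and 14.9, 25.5, 37.1 and 49.2 CPM in DE. DE replicate 1 lay within the FA range, while the DE libraries of prefix 12 were the highest. The mean was 14.4 ± 1.68 CPM over the FA libraries against 31.7 ± 14.8 CPM over the DE libraries (SD, n = 4 each), a log2 difference of 1.14 ± 0.29 (SE) at an adjusted p of 0.0434, a call lost without FA replicates 2, 3, 4 or 6 or DE replicates 7, 3 or 5 (adjusted p up to 0.128) and in limma-voom (adjusted p = 0.0804) and with the prefix as a term, which gave 0.47 (adjusted p = 0.24), and Bst2 was the only called member whose groups overlapped. Mx2 (Entrez gene 17858, chromosome 16 from 97536081 to 97560901), a dynamin-like GTPase, was at 2.25, 1.74, 1.749 and 1.77 CPM in FA and 3.30, 3.30, 3.79 and 5.56 CPM in DE. The lowest DE library lay above all FA libraries, of which replicate 2 stood apart as the highest. Its log2 fold change was 1.08 ± 0.21 (SE) at an adjusted p of 0.0165, a call lost without FA replicate 4 (adjusted p up to 0.0639) and with the prefix as a term, which gave 0.79 (adjusted p = 0.0762). Cmpk2 (Entrez gene 22169, chromosome 12 from 26469117 to 26479837), a mitochondrial nucleotide kinase, was at 9.55, 6.23, 5.64 and 7.03 CPM in FA and 11.3, 11.2, 14.2 and 11.6 CPM in DE, with no overlap and with DE replicate 3 highest. The log2 estimate for DE against FA was 0.75 ± 0.17 (SE) at an adjusted p of 0.0292, a call lost without FA replicates 3, 4 or 6 or DE replicate 3 (adjusted p up to 0.0945) and with the prefix as a term, which gave 0.64 (adjusted p = 0.101). Rsad2, or viperin, which neighbours Cmpk2 in the genome, was not called at 0.35 (adjusted p = 0.283). Ifitm3 was at 59.0, 49.8, 42.8 and 70.2 CPM in FA and 66.0, 78.0, 118 and 117 CPM in DE. DE replicate 1 lay among the FA libraries, and the log2 fold change of 0.77 ± 0.20 (SE) missed the threshold at an adjusted p of 0.0505, and 10 of 22 alternatives called it. Eif2ak2 (PKR), which stops translation when it binds double-stranded RNA, and Samd9l had estimates of 0.070 and 0.22, with adjusted p of 0.816 and 0.538.

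**Figure D2:**
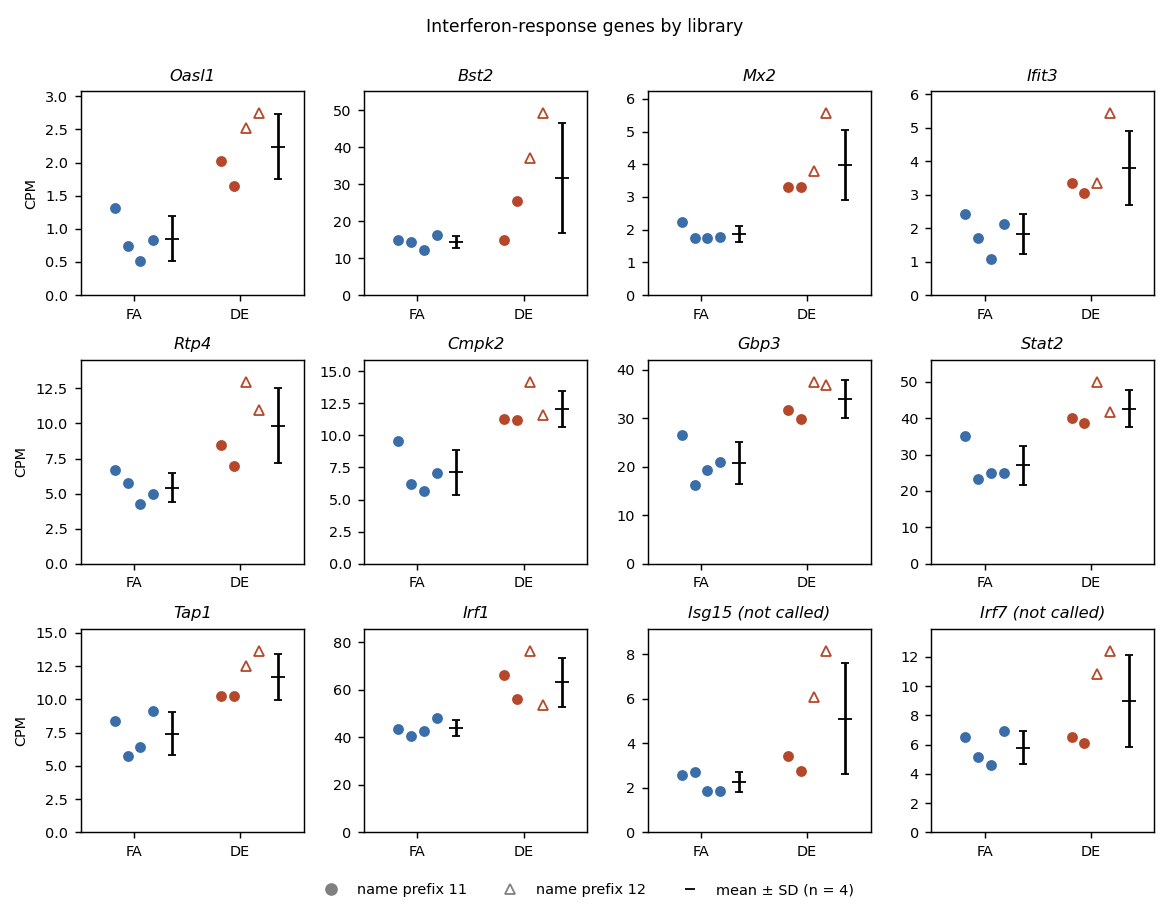
CPM (vertical axes, from 0) of the 10 called members, in order of fold change, and of Isg15 and Irf7, which were not called, in each FA (blue) and DE (red) library, with the group mean ± SD (n = 4) in black; open triangles are the DE libraries of name prefix 12. In every panel but Ifit3 and Irf1 both open triangles lie above all other libraries, and in Irf1 one of them is the lowest DE value.

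Isg15 is a ubiquitin-like protein that is joined to other proteins, and it was at 2.59, 2.69, 1.86 and 1.87 CPM in FA and 3.42, 2.77, 6.05 and 8.16 CPM in DE. All DE libraries lay above all FA libraries, by little in replicate 7 and by far in the libraries of prefix 12. Its log2 fold change of 1.18 ± 0.32 (SE) was not called, with an adjusted p of 0.0512, though 10 of 22 alternatives called it. Usp18, which removes Isg15 and damps the type I receptor, had 0.70 (adjusted p = 0.206). Trim25, the ligase that activates RIG-I, was among the most abundant members, at 93.1, 73.1, 81.2 and 77.2 CPM in FA and 82.2, 86.2, 94.8 and 81.7 CPM in DE. The groups overlapped, and its log2 fold change was 0.087 ± 0.10 (SE) at an adjusted p of 0.622. The ADP-ribosylation factors Parp9 and Parp14 and the Parp9 partner Dtx3l had estimates of 0.0054, 0.20 and -0.051, and 0 of the 6 genes of this group passed edgeR's test (1 had an unadjusted p under 0.05).

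Gbp3 was the member called among the guanylate-binding proteins, GTPases that attack the vacuoles of intracellular microbes. It (Entrez gene 55932, chromosome 3 from 142560016 to 142573213) was at 26.6, 16.3, 19.4 and 21.0 CPM in FA and 31.7, 29.8, 37.5 and 37.0 CPM in DE. No overlap was seen, and FA replicate 2 was the FA library nearest to DE. On the log2 scale the difference was 0.71 ± 0.15 (SE) at an adjusted p of 0.0231, a call lost without FA replicates 3 or 4 or DE replicate 3 (adjusted p up to 0.0813) and with the prefix as a term, which gave 0.56 (adjusted p = 0.0864). Gbp2 and Gbp7, on the same stretch of chromosome 3, had 0.37 and 0.14 (adjusted p = 0.124 and 0.744). The genes of this family are alike in sequence, so fragments could be shared between them. Gbp2 and Gbp7 held an ISRE core as Gbp3 did, 49 and 43 bases from their start sites.

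In antigen processing, Tap1 rose. This subunit of the pump that brings peptides to MHC class I (Entrez gene 21354, chromosome 17 from 34187556 to 34197225) was at 8.37, 5.73, 6.43 and 9.15 CPM in FA and 10.2, 10.2, 12.5 and 13.7 CPM in DE. The nearest libraries of the groups were FA replicate 6 and DE replicate 1, and they did not overlap. Its log2 fold change was 0.65 ± 0.17 (SE) at an adjusted p of 0.0465, a call lost without FA replicates 2, 3 or 4 or DE replicates 7, 3 or 5 (adjusted p up to 0.141) and with the prefix as a term, which gave 0.45 (adjusted p = 0.204). Psmb8, a catalytic subunit of the immunoproteasome, was at 2.51, 2.39, 1.69 and 2.46 CPM in FA and 2.57, 3.41, 4.68 and 4.51 CPM in DE, also without overlap. It was not called (log2 fold change 0.74 ± 0.22 (SE), adjusted p = 0.0711). Psmb9, which sits next to Tap1 in the genome, had 0.27 ± 0.39 (SE) at an adjusted p of 0.695.

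Rtp4, a chaperone of receptors that is strongly induced by type I interferon, was called among the remaining 6 genes. Its values (Entrez gene 67775, chromosome 16 from 23520219 to 23614222) were 6.66, 5.78, 4.29 and 4.97 CPM in FA and 8.47, 6.98, 13.0 and 11.0 CPM in DE. No library of one group reached the other, and the DE libraries of prefix 12 were the highest. The log2 estimate for DE against FA was 0.86 ± 0.20 (SE) at an adjusted p of 0.0356, a call lost without FA replicates 2, 3, 4 or 6 or DE replicates 3 or 5 (adjusted p up to 0.112) and with the prefix as a term, which gave 0.50 (adjusted p = 0.174). Xaf1, which promotes cell death, was at 6.87, 5.83, 5.36 and 6.69 CPM in FA and 7.41, 8.05, 10.5 and 12.7 CPM in DE. Its groups did not overlap, though FA replicate 2 and DE replicate 1 were close, and with a log2 estimate of 0.65 ± 0.18 (SE) it had an adjusted p of 0.0592. The estimates of Ifi44, Ifi27, Ifi35 and Lgals3bp were 0.79, 0.45, 0.43 and 0.33, none of them called (adjusted p between 0.104 and 0.242).

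The levels of the members also differed between libraries of the same group. For each library the median over the 40 members was taken of the log2 level minus that gene's mean over the 8 libraries. It was 0.04, -0.41, -0.46 and -0.12 in FA and 0.06, 0.11, 0.42 and 0.48 in DE. FA replicate 2 thus lay next to DE replicate 1, and it was the highest FA library for 27 of the 40 members, against 23.3% of all tested genes. The lowest of the 8 libraries was FA replicate 3 for 21 members (12.1% of all tested genes) and FA replicate 4 for the other 19 (11.4%). The highest was one of the prefix 12 libraries for 32 members, against 30.8% of all tested genes.

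**Figure D3:**
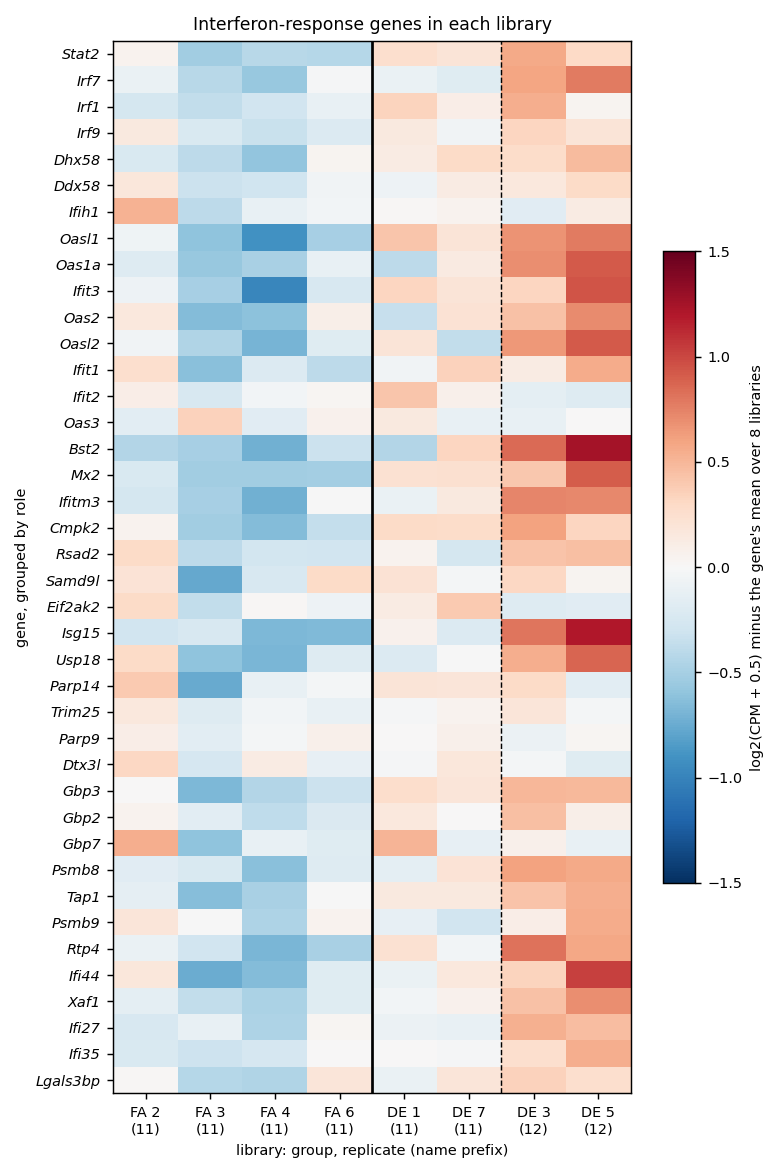
Level of each of the 40 tested members (rows, grouped by role) in each library (columns, with the name prefix in brackets), as log2(CPM + 0.5) minus the gene's mean over the 8 libraries. Columns FA 3 and FA 4 are blue for most rows and columns DE 3 and DE 5 red, and the median of a column runs from -0.46 in FA 4 to 0.48 in DE 5.

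Because the prefix 12 libraries are both DE, prefix and exposure cannot be told apart outside prefix 11, and the prefix was looked at within DE, a comparison added after the data were seen. In a fit with exposure and prefix over all 8 libraries, 3 members were called higher in DE of prefix 12 than in DE of prefix 11, against 0.528% of all tested genes, and 0 were called lower (2 at an unadjusted p under 0.05, by edgeR), against 1.54%. They were Isg15 (log2 difference 1.19, adjusted p = 0.0405, edgeR), Bst2 (1.11, adjusted p = 0.0410) and Irf7 (0.88, adjusted p = 0.0498). With library totals alone none of the 3 was called (adjusted p of 0.0522 to 0.0574), and with RLE size factors Irf7 was not (0.0525). For 25 of the 40 members both libraries of prefix 12 lay above both of prefix 11, against 29.9% of all tested genes, and for 3 both lay below, against 30.4%. Those 3 were Ifit2 (log2 difference -0.44), Eif2ak2 (-0.45) and Dtx3l (-0.18). The calls rested on 2 libraries against 2. None of the 3 was called without DE replicate 1, 3 or 5, and without DE replicate 7 Bst2 alone was, with an adjusted p of 0.0380. Each of these leaves 1 library on one side, which is then assumed to vary like the other groups, so they say nothing about the stability of the calls.

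Within prefix 11, 2 DE libraries could be set against the 4 FA libraries. There 0 members were called (11 at an unadjusted p under 0.05, by edgeR's test), against 0.96% of all tested genes called higher, and the median log2 fold change was 0.27. With the prefix as a term over all 8 libraries the same contrast gave 0 calls among the members (13 at an unadjusted p under 0.05, by edgeR), against 2.99% of all tested genes, and 38 of 40 estimates above 0, against 49.6%. Estimates of the 10 genes called over all libraries ran there from 0.45 for Tap1 to 1.04 for Oasl1, and all 10 were smaller than over all libraries. These 10 were chosen by a call that used the prefix 12 libraries, so this difference in size is no test of the prefix. With the 2 DE libraries of prefix 12 against the same FA libraries, a comparison added after the data were seen, 23 members were called higher, against 8.83% of all tested genes, and the median was 0.73. Both comparisons share the FA libraries.

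**Figure D4:**
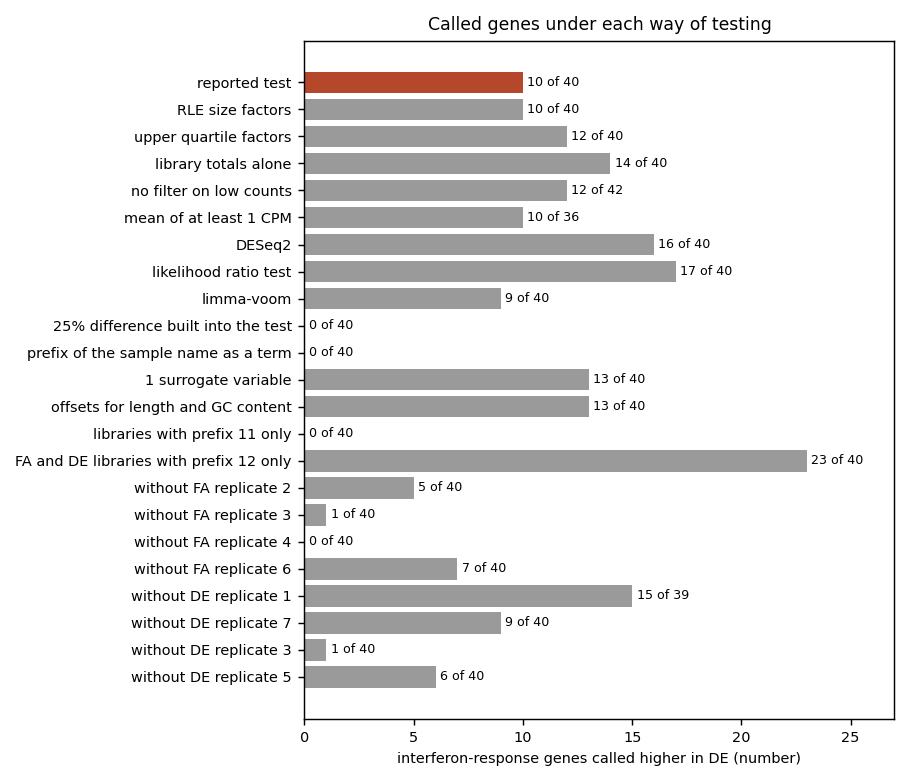
Number of tested members called higher in DE (bars, from 0) under the reported test (red) and under each alternative (grey), with the number tested beside each bar. The reported test calls 10 of 40, and the bars run from 0 to 23.

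The rest of the pathway was described by a list of 55 genes that are not members. The ligands were close to absent. Ifnb1, Ifna2, Ifna4, Ifnk and Ifng together had 3 counts in the 4 FA libraries and 13 counts in the 4 DE libraries, of which 7 were counts of Ifna2 in DE replicate 5. In each single library other than that one, each of these genes was at or under the 3 counts that a count of 0 allows, so a difference was not detectable at this depth. Ifna2 belongs to a family of near-identical genes. The receptors were made in all libraries, and 0 of 6 were called (3 had an unadjusted p under 0.05 from edgeR). Ifnar1 was at 60.6, 55.3, 61.6 and 62.5 CPM in FA and 63.2, 55.2, 60.7 and 50.1 CPM in DE. The groups overlapped, and its log2 fold change was -0.066 ± 0.10 (SE) at an adjusted p of 0.708. Ifnar2 and Ifngr1 had 0.27 and 0.20, and Ifngr2, Il10rb and Ifnlr1 had -0.42, -0.27 and -0.47, with adjusted p between 0.0515 and 0.302. The groups did not overlap for Ifnar2, higher in DE, and for Ifngr2, lower in DE. Ifngr2 was called lower in DE by edgeR with the prefix as a term, at -0.54 on the log2 scale and an adjusted p of 0.0408.

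In all, 2 of the 48 tested genes of this list were called higher and 1 lower, against 3.58% and 2.22% of all tested genes. Lgals9, which encodes galectin-9, rose, its mean being 38.0 ± 7.63 CPM over the FA libraries against 70.4 ± 14.9 CPM over the DE libraries (SD, n = 4 each), a log2 difference of 0.89 (adjusted p = 0.0161). Ube2l6, the enzyme that passes Isg15 to its targets, rose, its mean being 14.0 ± 2.39 CPM over the FA libraries against 20.4 ± 2.10 CPM over the DE libraries (SD, n = 4 each), a log2 difference of 0.54 (adjusted p = 0.0425). Ddx60, a helicase induced by interferon, fell, its mean being 12.3 ± 3.11 CPM over the FA libraries against 6.21 ± 1.08 CPM over the DE libraries (SD, n = 4 each), a log2 difference of -0.9996 (adjusted p = 0.0157). No DE library of Ddx60 reached the lowest FA library. With the prefix as a term none of these 3 genes was called by edgeR, where the log2 estimates were 0.61 for Lgals9 (adjusted p = 0.0626), 0.42 for Ube2l6 (adjusted p = 0.162) and -0.89 for Ddx60 (adjusted p = 0.0657). Of the 8 tested genes of MHC class I presentation 6 had estimates above 0 and 0 passed the test (4 had an unadjusted p under 0.05 from edgeR), with B2m at 0.58 (adjusted p = 0.0762). The median over the 48 genes was 0.24. Without FA replicate 4 (0.796% of all tested genes called higher), and also without DE replicate 3 (1.04%), none of the list was called higher. The count was 1 without FA replicate 2 (0.927%) or DE replicate 5 (2.38%), 4 without DE replicate 7 (2.73%) and 5 without DE replicate 1 (4.35%).

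Interferon-response genes are also made by other cells of the heart, and the markers of those cells were read beside them. Fibroblast markers summed to 2008 to 3461 CPM in FA and 3655 to 6177 CPM in DE, with 2 of 8 called higher (Col1a1 and Dcn), and with the prefix as a term 4 of 8 (Col1a1, Col1a2, Col3a1 and Pdgfra). All 8 estimates lay above 0, and 6 had an unadjusted p under 0.05. Leukocyte markers summed to 18.6 to 26.6 CPM in FA and 25.7 to 37.4 CPM in DE, with 1 of 11 tested called higher, Itgam, at 0.481 ± 0.0830 CPM over the FA libraries against 0.943 ± 0.122 CPM over the DE libraries (SD, n = 4 each). With the prefix as a term Itgam was not called by edgeR, at a log2 estimate of 0.83 (adjusted p = 0.159). Ptprc, the common leukocyte antigen, was at 0.451 to 0.802 CPM in FA and 0.693 to 1.00 CPM in DE, and the T cell marker Cd3e and the neutrophil marker Ly6g had 7 and 2 counts over all libraries. Of the 11 tested leukocyte markers 10 had estimates above 0, and 5 had an unadjusted p under 0.05. The 1 below 0 was Csf1r, a macrophage marker, at a mean of 3.20 CPM in FA and 2.76 CPM in DE and a log2 estimate of -0.18 (adjusted p = 0.649, edgeR). Laptm5 and Lyz2, of the same list, had log2 estimates of 0.20 and 0.35 (adjusted p = 0.543 and 0.439). Cd68, a macrophage marker and the one of this list with the highest level per kilobase, was at 6.52, 10.7, 7.39 and 7.97 CPM in FA and 10.3, 9.54, 16.4 and 14.5 CPM in DE, highest in the libraries of prefix 12, with overlap between the groups and a log2 estimate of 0.65 (adjusted p = 0.0813). Cd79a, of B cells, was at 0.695, 0.698, 0.734 and 0.639 CPM in FA and 0.817, 1.07, 1.32 and 1.596 CPM in DE, without overlap, at 0.81 (adjusted p = 0.0813). S100a8 and S100a9, which neutrophils and other myeloid cells make, had more. S100a9 was at 1.39, 1.69, 0.734 and 1.38 CPM in FA and 3.72, 2.66, 2.67 and 1.70 CPM in DE, without overlap, and its log2 estimate of 1.03 ± 0.28 (SE) was not called (adjusted p = 0.0573), while with the prefix as a term it was, at an adjusted p of 0.0379. S100a8 was at 1.04, 1.59, 0.339 and 0.541 CPM in FA and 2.42, 2.08, 1.89 and 1.07 CPM in DE, with overlap, at a log2 estimate of 1.04 (adjusted p = 0.132). Endothelial markers summed to 968 to 1283 CPM in FA and 1048 to 1559 CPM in DE with 0 of 8 called by edgeR (4 at an unadjusted p under 0.05), smooth muscle and pericyte markers to 172 to 239 CPM in FA and 184 to 297 CPM in DE with 0 of 6 (0 at that threshold), and erythroid markers to 759 to 1880 CPM in FA and 1209 to 2022 CPM in DE with 1 of 6 (Slc4a1). The fibroblast sum was thus higher in every DE library than in every FA library, and the leukocyte sums overlapped, with DE replicate 7 below FA replicate 3. In DE, the fibroblast sum was highest in replicate 1, of prefix 11, and the leukocyte sum in replicate 3, of prefix 12. The part of these cells in the members' levels was not tested. In such bulk samples more cells of a type and more RNA per cell cannot be told apart.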

How the data were processed

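Per the labels and the study's methods, poly-A RNA was made into TruSeq Stranded libraries and sequenced on a HiSeq instrument. The authors aligned reads to mm10 with an Ensembl transcriptome using TopHat, merged lanes and marked PCR duplicates, without removing them, with Picard, realigned with GATK, and deposited whole-number counts of fragments per Entrez gene from featureCounts. The strand and multi-mapping settings are not given in the sources used here. The methods state 3 newborns a group, and the table holds 4 libraries a group, all of which were used.

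Symbols and positions came from RefSeq (GRCm38.p6) by Entrez identifier, which matched 25275 of 27179 genes. Genes were kept by filterByExpr (minimum count 10), which left 14966, and scaled by TMM. They were tested with edgeR 4.0.16 in R 4.3.3 by the quasi-likelihood test, the model holding exposure and no covariate. Benjamini-Hochberg adjustment covered every tested gene. Calls required an adjusted p of 0.05 or less and a difference of at least 25%. CPM used the same factors. Fold changes are DE against FA. Levels per kilobase used the longest protein-coding transcript of the reference annotation. Steps were tested on simulated data first. Depth was 17943024 to 39839737 counts, and the biological coefficient of variation was 15.95%. No pair of libraries of the same group agreed within sampling noise.

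Members and lists were chosen with earlier results of these data known, so no test was run on a list as a whole. Values in every library are given for members that were called, whose groups did not overlap, or that were among the 5 with the highest level per kilobase or the largest change, and also, chosen after its values were seen, for Irf7. Of other pathway genes, those named are called genes, ligands and receptors, and also B2m, chosen after its value was seen. The rule names 1 further gene, which is not reported here. Alternatives were other scalings (RLE, upper quartile, totals), other filters, DESeq2 1.42.0, edgeR's likelihood ratio test, limma-voom 3.58.1, the 25% built into the test, the name prefix as a term or prefix 11 alone, 1 surrogate variable (sva 3.50.0), offsets for length and GC content, and each library left out.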

Additional observations from a re-analysis of the deposited data

Results flagged for a closer look

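In 6 of the 80 sets of 4 values (40 members in 2 groups), 1 library lay far from the other 3 by Dixon's test at the 95% level. Chance gives about 1 in 20 such sets. FA replicate 2 was the far library in 3 of them, each time as the highest. Stat2 was at 34.97 CPM there with the next FA library at 25 CPM, Mx2 at 2.246 CPM with the next at 1.77 CPM, and Rsad2 at 16.76 CPM with the next at 11.17 CPM. In DE, Ifit3 reached 5.437 CPM in replicate 5, above 3.359 CPM in the next library, and Cmpk2 reached 14.17 CPM in replicate 3, above 11.57 CPM. In FA, Psmb8 was lowest in replicate 4 at 1.693 CPM, where the next library was at 2.392 CPM.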

How the results depend on the processing

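No paired analysis was possible because each library came from a different newborn and the labels name no pairs. The count of 10 members called higher became 16 by DESeq2, 17 by the likelihood ratio test, 23 with DE of prefix 12 alone, and 0 with the 25% built into the test, with the prefix as a term or in prefix 11 alone. The share of all tested genes called higher, 3.58% as reported, was 6.19%, 6.23%, 8.83%, 0.294%, 1.78% and 0.96% in the same order. Leaving out 1 library gave 0 to 15 members and 0.796% to 4.35% of all tested genes. Without FA replicate 4 all 10 calls were lost, and among single libraries left out Mx2 was lost only then, at an adjusted p of 0.0639 by edgeR. Among the same, Ifit3 and Bst2 were kept only without DE replicate 1. The count called lower was 0 in every alternative. The median of 0.59 became 0.2733 with the prefix as a term and 0.2714 in prefix 11 alone, and lay between 0.4358 and 0.7008 without 1 library. Scaling by library totals alone moved the median of all tested genes to 0.0755.

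For the other pathway genes, the 2 called higher became 5 by DESeq2, 5 by the likelihood ratio test, 5 with the surrogate variable, 6 with offsets, 11 with DE of prefix 12 alone, and 0 with the 25% built in, the prefix as a term or prefix 11 alone. The share of all tested genes called higher was 6.19%, 6.23%, 7.17%, 6.15%, 8.83%, 0.294%, 1.78% and 0.96% in the same order. Leaving out 1 library gave 0 to 5, against 0.796% to 4.35% of all tested genes. The 1 called lower became 2 by DESeq2, by the likelihood ratio test and with DE of prefix 12 alone, 4 with the surrogate variable, 3 with offsets, and 0 with the 25% built in and in prefix 11 alone. It was also 1 with the prefix as a term, but of another gene, since Ddx60 was lost (adjusted p = 0.0657, edgeR) and Ifngr2 was gained (0.0408). The 3 members called between the prefixes, among 309 genes called in all, became 0 with library totals alone (26 genes) and 8 by the likelihood ratio test (1273 genes). They were 3 or 4 without 1 FA library (356 to 1031 genes). Fits without a DE library leave 1 library on one side and are not counted here.

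Estimates changed sign for 8 members, none of them called. With library totals, Ifih1 was at 0.036, Oas3 at 0.011 and Dtx3l at 0.021. With the prefix as a term, Oas3 was at 0.058, Dtx3l at 0.037 and Psmb9 at -0.39, and in prefix 11 alone Oas3 at 0.050, Dtx3l at 0.034 and Psmb9 at -0.39. With the surrogate variable, Ifih1 was at 0.045, Dtx3l at 0.043 and Psmb9 at -0.051, and with offsets Ifih1 was at 0.13 and Dtx3l at 0.061. With DE of prefix 12 alone, Ifit2 was at -0.15, Eif2ak2 at -0.17, Parp9 at -0.036 and Gbp7 at -0.0058. Without 1 library, the lowest and highest estimates were -0.16 and 0.20 for Ifih1, -0.056 and 0.17 for Ifit2, -0.22 and 0.18 for Oas3, -0.065 and 0.19 for Eif2ak2, -0.047 and 0.044 for Parp9, -0.14 and 0.063 for Dtx3l, -0.033 and 0.41 for Gbp7 and -0.13 and 0.48 for Psmb9. Of all 875 estimates of members under the alternatives, 34 changed sign, 76 lost and 49 gained a call, and the cause was not tested.

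The depth limits the ligands and, among the members, Zbp1 and Mx1. The design limits the calls: each group had 4 newborns of unknown litter, and every library of prefix 12 was DE.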
